A study of Mus musculus with 6 samples.

Results

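The integrated stress response was followed in the ganglion cell layer of the mouse retina through 10 genes, Atf4, Atf5, Ddit3, Trib3, Chac1, Asns, Xbp1, Ppp1r15a, Eif2ak3 and Sesn2. The genes were taken by name, and every probe set of the array that carries 1 of these symbols alone in the platform's gene table was included, which gave 21 of 45037 probe sets for 10 of 18193 named genes. All mice were male C57BL/6J, with no transgene. In the crush group the optic nerve was crushed with forceps behind the globe and the eye was enucleated after 6 hrs, while the control group held the uninjured contralateral eyes of the same animals (ages are not given in the sources used here). There were 3 arrays from control eyes and 3 from crushed eyes, 1 per eye, numbered 1 to 3 in each group, and each crushed eye was paired with the control of the same number. About 6000 cells were laser-captured per eye, yielding about 60 ng of RNA that was amplified before labeling. The control eyes belong to injured animals, so an effect of the operation on both eyes cannot be told apart from the resting level.

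The integrated stress response slows general protein synthesis and at the same time favors a set of stress genes. Kinases that sense different stresses phosphorylate the initiation factor eIF2, among them PERK (the product of Eif2ak3), which senses unfolded protein in the endoplasmic reticulum (ER). Translation of ATF4 then increases even though its mRNA may be little changed, and ATF4 turns on genes for amino acid supply, for feedback and, through the factor CHOP (Ddit3), for cell death. In retinal ganglion cells (RGCs) this pathway and the linked JNK kinase DLK are known to be engaged by injury of the axon. Arrays measure mRNA, so neither the phosphorylation of eIF2 nor the translation of Atf4 was measured here.

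At 6 hrs after crush the members did not move together. Trib3, which encodes a pseudokinase that is induced by ATF4 and CHOP and feeds back on them, was the sole member past an unadjusted p under 0.05 from limma, at 1.47-fold of control, and this rested on 1 of its 2 probe sets. Ppp1r15a, which encodes GADD34, the subunit that directs a phosphatase to eIF2, was higher in every crushed eye than in any control eye but did not pass that threshold. Atf4, Atf5, Ddit3, Chac1, Asns, Xbp1, Eif2ak3 and Sesn2 did not pass it on the brightest probe set either. On those probe sets 5 member genes were above 0 and 5 below 0, with a median log2 difference of -0.0034 against -0.0197 over all 15103 genes tested. Over genes read on their brightest probe set, 5.03% passed an unadjusted p under 0.05 in either direction, 2.76% passed it as higher and 2.27% as lower, and 1 of 10 members does not set the group apart from these shares. No probe set of the whole array passed a Benjamini-Hochberg adjusted p under 0.05 from limma, against 2546 at an unadjusted p under 0.05, and adjusted p values of the members ranged from 0.642 to 0.969. When limma's prior was made robust and followed a trend with intensity, 1 probe set of the whole array passed, which was none of the members.

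Crush eye 2 and crush eye 3 stood apart from the other arrays. By a margin of over 1 in log2, 1331 probe sets had their lowest value in crush eye 2 (4 to 57 in other eyes) and 255 their highest in crush eye 3 (2 to 27 in other eyes). Of 12 markers of RGCs 11 were measured. Pou4f3 was dim at 25.8 to 72.1, and the others, among them Rbpms, Thy1 and Nefl, were far above the minimum of 40 on all arrays. Together they had a summed intensity of 61328 to 63316 in control eyes and 54018 to 68168 in crushed eyes. The captured layer also held markers of other cells, and those of rods and cones (9 of 10 measured) summed to 26398 to 47474 in control eyes and 35122 to 42621 in crushed eyes. Of the defining markers of other cells, Rpe65 of the pigment epithelium was at 1.00 to 10.2 on every array and the 2 probe sets of Trem2 of microglia at 1.00 to 9.43. Other microglial genes were measured, with Csf1r at 1993 to 3065 and C1qb at 617 to 1153, and Gnat1 of rods and Glul of Muller cells were far above the minimum of 40 on every array, at 5312 to 10394 and 10800 to 11619. Of the other lists, 3 of 5 pigment epithelium markers (Rgr, Dct and Lrat) and 2 of 4 astrocyte markers (Gfap and Pdgfra) were higher with an unadjusted p under 0.05 from limma, and Aqp4 of Muller cells (-0.36), Cabp5 of bipolar cells (-0.66) and Crygs of the lens (-1.83, with -4.07 in pair 2) were lower. In such samples fewer cells of a type and less RNA per cell cannot be told apart.

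DNA motifs bound by factors of this pathway were looked for in RefSeq promoters of build GRCm38.p6, from 250 bases before to 50 bases after each start, on both strands. All 10 members had a promoter in the table, in 11 windows. The core of the C/EBP-ATF response element (CARE), TGATGNAA, to which ATF4 binds with a partner, was in the promoters of 3 members (Trib3, Chac1 and Asns) and in 3.97% of all 32851 promoters of this length. The cAMP response element (CRE), TGACGTCA, was in that of Ppp1r15a and in 1.79% of all promoters. The ER stress element (CCAAT and CCACG with 9 bases between them) and the element TGACGTGG, to which ATF6 and XBP1 bind, were in 0 member promoters and in 0.119% and 0.676% of all promoters. The sites of the 2 members whose crushed eyes all lay above their control eyes, and of those that share the CARE core with Trib3, are given with 10 bases on each side, on the strand of the gene and with the motif in capitals.
Trib3 (minus strand, chr2:152344029-152344056): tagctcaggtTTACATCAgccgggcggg
Chac1 (plus strand, chr2:119351039-119351066): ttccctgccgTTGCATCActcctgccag
Asns (minus strand, chr6:7693215-7693242): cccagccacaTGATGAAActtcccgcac
Ppp1r15a (minus strand, chr7:45526263-45526290): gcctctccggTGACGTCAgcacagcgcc
In Trib3 the CARE core runs on the opposite strand from base 15 to base 22 of the transcript, in Chac1 on the opposite strand from -193 to -186, and in Asns on the strand of the gene from -23 to -16. The CRE of Ppp1r15a reads the same on both strands and lies from -12 to -5. These are matches of letters in a short window, and binding was not measured. The 3 members with a CARE core had log2 differences of 0.55 (Trib3), 0.11 (Chac1) and -0.10 (Asns), of which the first passed an unadjusted p under 0.05 from limma.

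Eif2ak3, which encodes the ER stress kinase PERK, had intensities of 1479, 1642 and 1223 in control eyes 1, 2 and 3 and of 1619, 788 and 1371 in crushed eyes 1, 2 and 3. Crush eye 2 was the lowest of all and the other crushed eyes lay within the range of the control eyes. The log2 difference was -0.25 (95% interval -0.97 to 0.46, adjusted p = 0.8 from limma), with 0.13 in pair 1, -1.06 in pair 2 and 0.17 in pair 3, and without pair 2 it was 0.15. Its other 2 probe sets were dim, with means of 35.6 and 13.8, and were not tested. Ppp1r15a, the feedback subunit that restores protein synthesis, was at 316, 329 and 300.5 in control eyes and at 329, 361 and 493 in crushed eyes. All crushed eyes were above all control eyes, the lowest of them by less than 1 unit, and most of the difference came from crush eye 3. Its log2 difference was 0.30 (95% interval -0.16 to 0.77, adjusted p = 0.678 from limma), and pair 3 alone had 0.71 against 0.06 and 0.14 in the others. The ratio of its group means, 1.25, was over the study's fold threshold of 1.2, and their difference of 79.5 was just under the threshold of 80. Ppp1r15a also missed the study's criterion of p under 0.05 (unadjusted p = 0.157 from limma and unadjusted p = 0.296 from the methods' t-test).

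**Figure D1:**
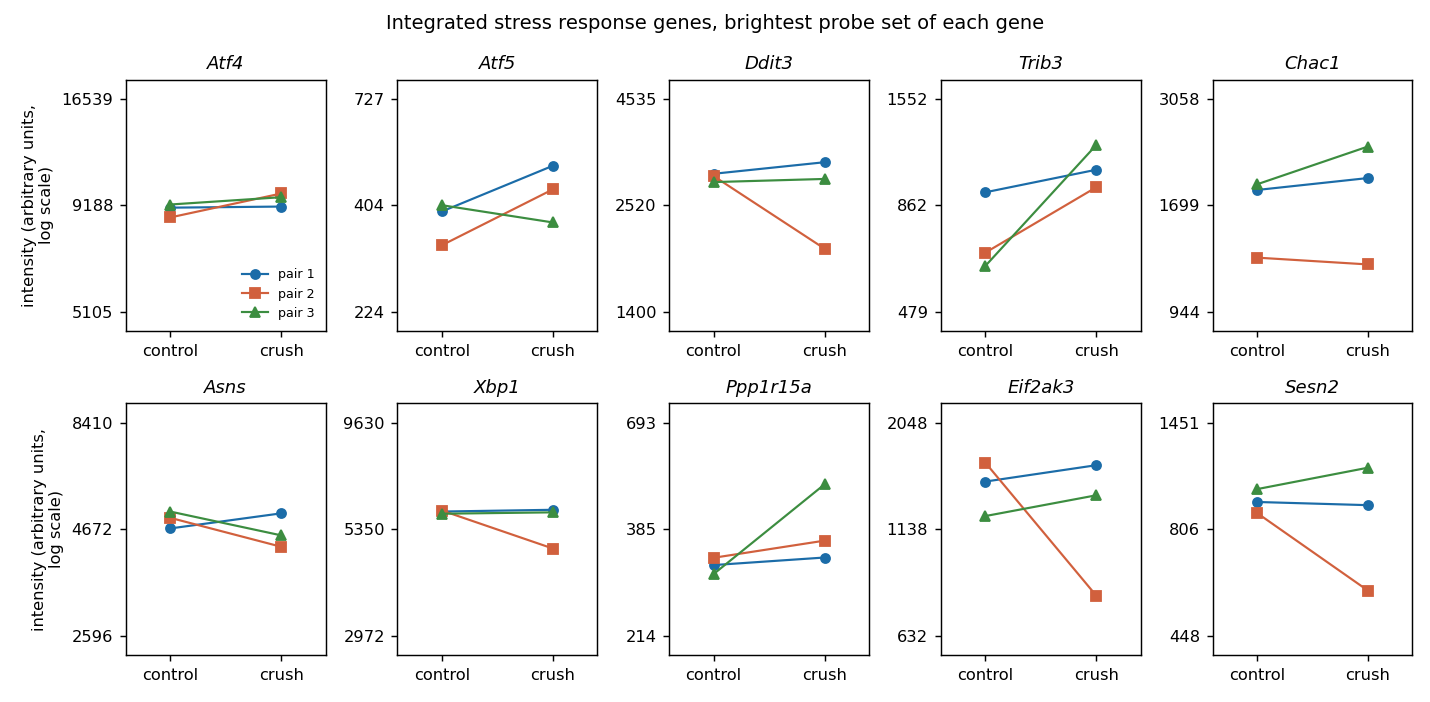
Array intensity (arbitrary units, log scale spanning the same 4-fold range in every panel) of the 10 members on the brightest probe set of each, with lines that join the control and the crushed eye of a pair. All 3 crushed eyes are above all control eyes for Trib3 and Ppp1r15a, and crush eye 2 is the lowest of the 6 for Ddit3, Chac1, Asns, Xbp1, Eif2ak3 and Sesn2.

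Among the transcription factors, Atf4, the central activator of the response, had the narrowest interval of the 10 members. On its brightest probe set it was at 9078, 8601 and 9237 in control eyes and at 9133, 9815 and 9617 in crushed eyes. The crushed eye was higher in each pair, but the groups overlapped, and the log2 difference was 0.09 (95% interval -0.26 to 0.43). Another probe set of Atf4 had 0.08 (95% interval -0.29 to 0.45), and a further probe set was at 1.00 on all 6 arrays. Atf5, a relative of ATF4 that is likewise controlled through translation and is tied to mitochondrial stress, was at 391, 324 and 404 in control eyes and at 503, 441 and 368 in crushed eyes. It was higher in pairs 1 and 2 and lower in pair 3, with a log2 difference of 0.22 (95% interval -0.22 to 0.66).

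Ddit3 encodes CHOP, the factor that links a lasting response to cell death. It was at 3001, 2963 and 2866 in control eyes, which lay close together, and at 3198, 1985 and 2916 in crushed eyes. Crush eye 2 was far below the other arrays and the other crushed eyes were near their controls, with differences of 0.09 in pair 1, -0.58 in pair 2 and 0.02 in pair 3. The log2 difference was -0.15 (95% interval -0.63 to 0.32) and without pair 2 it was 0.06. Xbp1, the factor that the ER sensor IRE1 activates by splicing of its mRNA, had 4 probe sets, and on the brightest of them was at 5896, 5930 and 5825 in control eyes and at 5953, 4808 and 5870 in crushed eyes. Apart from crush eye 2 these 6 values differed little, and the log2 difference was -0.09 (95% interval -0.47 to 0.28), or 0.01 without pair 2. The other Xbp1 probe sets had -0.03, -0.26 and -0.23, and crush eye 2 was below its control on all 4. Probe sequences were not at hand, so whether any of these probe sets separates the spliced from the unspliced mRNA was not examined. Splicing was not analysed here.

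Among the targets, Trib3 was at 927, 665 and 618 in control eyes and at 1050, 954 and 1204 in crushed eyes on its brightest probe set. The groups did not overlap, although crush eye 2 was close to control eye 1, and the crushed eye was higher in each pair. The log2 difference was 0.55 (standard error 0.19, 95% interval 0.07 to 1.04, unadjusted p = 0.0328 and adjusted p = 0.642 from limma), with 0.18 in pair 1, 0.52 in pair 2 and 0.96 in pair 3. It was the sole member probe set that met the study's criteria (a fold over 1.2, a difference over 80 and p under 0.05, here from limma), which 3.12% of all probe sets met. With the methods' paired t-test in place of limma 0 member probe sets passed, and without pair 3 the difference of Trib3 was 0.35 (unadjusted p = 0.157 from limma). The other probe set, dim at 49.5 to 52.3 in control eyes, was at 53.1, 32.0 and 41.0 in crushed eyes, a log2 difference of -0.29 (95% interval -0.74 to 0.15). Averaged over both, Trib3 had 0.13 (unadjusted p = 0.392 from limma). The brighter probe set is of the kind that Affymetrix marks with x, in which probes may also bind other transcripts. The brightest probe sets of Atf4 and Asns are of the same kind.

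Trib3 and Ppp1r15a had their largest differences in pair 3, and so did rod and cone markers, with median log2 differences of -0.19, 0.06 and 0.89 in pairs 1, 2 and 3, with 8 of 9 above 0 over all pairs and 1 past an unadjusted p under 0.05 from limma. Among control eyes, summed rod and cone markers (47474, 35751 and 26398 in eyes 1, 2 and 3) had the same order as Trib3. In pair 1, however, these markers were lower after crush, at 42621, where Trib3 was higher, and in pair 2 they were at 35751 and 35122 where Trib3 had 0.52. Their part in the result was not tested.

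Chac1, which encodes an enzyme that breaks down glutathione and is a target of ATF4, was at 1850, 1274 and 1909 in control eyes and at 1976, 1227 and 2351 in crushed eyes. Both eyes of pair 2 were low, so the spread between animals was wider than that within pairs, and the log2 difference was 0.11 (95% interval -0.26 to 0.49). Without the pairing it was -0.08 when the array of crush eye 3 was left out and 0.38 when that of crush eye 2 was. Asns, asparagine synthetase, was at 4691, 4974 and 5149 in control eyes and at 5099, 4240 and 4515 in crushed eyes. The groups overlapped, and the log2 difference was -0.10 (95% interval -0.48 to 0.28) here and -0.16 on its other probe set. Both Asns probe sets were higher in pair 1 and lower in pairs 2 and 3. Sesn2, whose product sestrin 2 senses leucine and restrains mTORC1, was at 937, 882 and 1005 in control eyes and at 920.5, 575 and 1132 in crushed eyes. Crush eye 2 was the lowest and crush eye 3 the highest of the 6, and the log2 difference was -0.16 (95% interval -0.66 to 0.34), or 0.07 without pair 2. A dim probe set of Sesn2 was at 56.9, 54.7 and 77.7 in control eyes and at 29.9, 54.8 and 49.2 in crushed eyes, with a log2 difference of -0.53 (95% interval -1.08 to 0.02, unadjusted p = 0.0559 from limma). Averaged over both probe sets, Sesn2 had -0.34 and was the sole member past an unadjusted p under 0.05 from limma (unadjusted p = 0.0394).

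**Figure D2:**
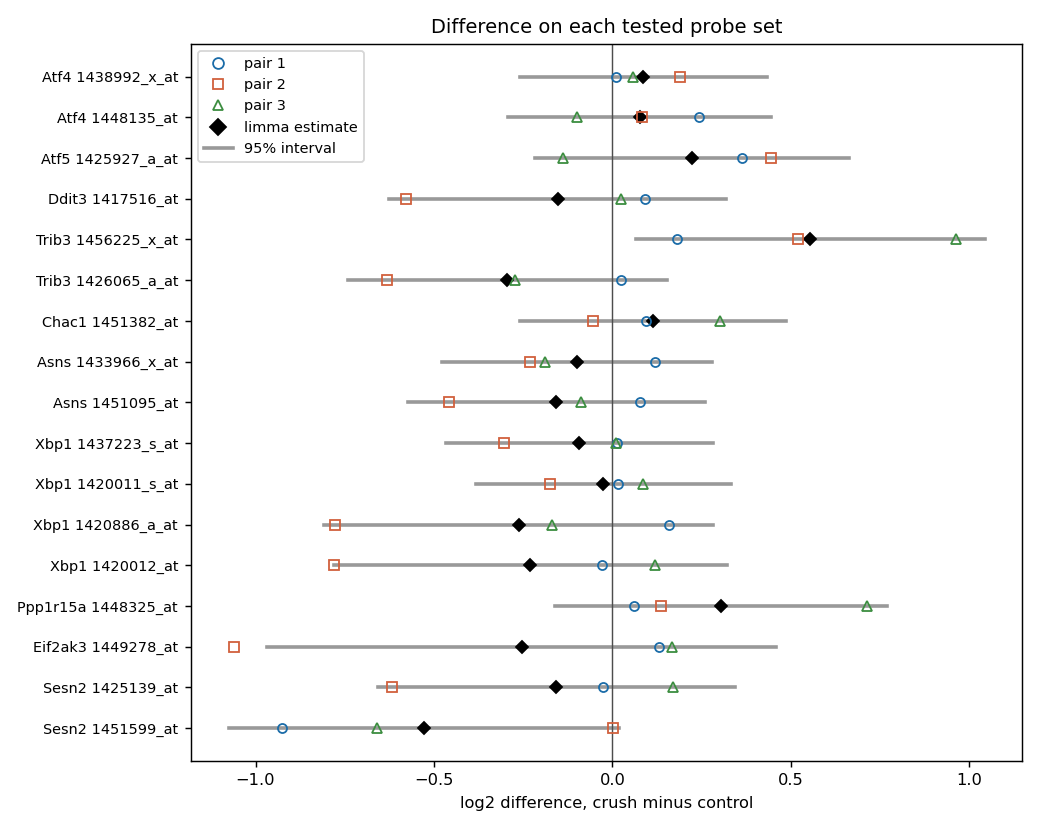
Log2 difference, crush minus control, on the 17 tested probe sets of the 10 members (open symbols, the 3 pairs; diamonds, limma's estimate; bars, its 95% interval). The interval excludes 0 on a single probe set of Trib3, and the other probe set of Trib3 has the opposite sign.

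Of the 21 member probe sets, 17 had a mean intensity of at least 40 over the 6 arrays and were tested, and these cover all 10 genes. The others were the dimmest probe sets of Atf4 and Ddit3 and 2 of Eif2ak3, at 1.00 to 44.1 on any array. Of the 17 tested, 1 passed an unadjusted p under 0.05 from limma as higher and 0 as lower, where 7.68% of all tested probe sets did in either direction, 5.16% as higher and 2.51% as lower. All crushed eyes were above all control eyes on 2 of the 17 (against 7.29% of all probe sets) and below them on 0 (against 5.25%). The crushed eye was higher in each pair on 3 of the 17, those of Atf4, Trib3 and Ppp1r15a, where 17.6% of all probe sets were, and lower in each pair on 0, where 14.2% were. The intervals of the member genes that did not pass differed in width, from that of Atf4 (-0.26 to 0.43) to that of Eif2ak3 (-0.97 to 0.46), and changes within a gene's own interval remain possible. The spread between control eyes had a median SD of 0.0814 on the log2 scale over the members against 0.147 over all genes. On the brightest probe set the SD was above 0.147 for Chac1 (0.324), Trib3 (0.312), Eif2ak3 (0.216) and Atf5 (0.171). For all other members it was below 0.147.

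The pairs differed in what the members did. In pair 1, 9 of 10 members were above 0 with a median log2 difference of 0.0935, where 53.1% of all genes were above 0 and the median was 0.0136. In pair 3, 8 of 10 were above 0 with a median of 0.112, where 57.2% of all genes were above 0 and their median was 0.0439. In pair 2, 4 of 10 were above 0 with a median of -0.142, where 38.9% of all genes were above 0 and their median was -0.101. Crush eye 2 was the lowest of the 6 arrays on 10 of the 17 tested member probe sets, against 34.6% of all tested probe sets. Ddit3, Eif2ak3 and Sesn2 were below -0.5 in pair 2, as 18.8% of all genes were, while Trib3, Atf5, Atf4 and Ppp1r15a were above 0 there. RGC markers had medians of 0.19 in pair 1, -0.27 in pair 2 and -0.10 in pair 3, and 3 of 11 were above 0 over all pairs, with 0 past an unadjusted p under 0.05 from limma in either direction. In pair 2 the medians of amacrine (-0.40), bipolar (-0.45) and lens (-2.43) markers were below that of RGC markers. Those of Muller cells (-0.13), rods and cones (0.06), astrocytes (0.23), endothelial cells and pericytes (0.26), microglia (0.48) and pigment epithelium (0.49) were above it. The part of these cell types in the lower values of pair 2 was not tested. Without pair 2 the median of the members was 0.093.

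**Figure D3:**
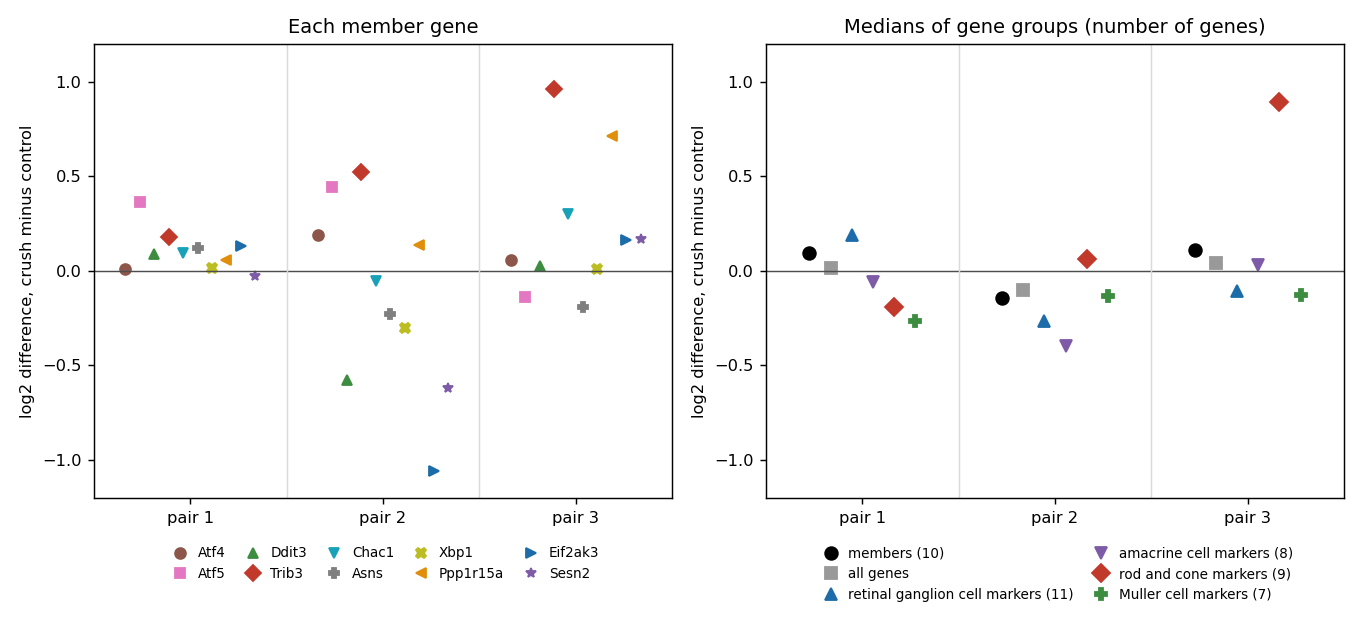
Log2 difference, crush minus control, in each pair of eyes, for the 10 members on the brightest probe set (left) and as medians over gene groups (right), with symbols spread sideways for legibility. Ddit3, Eif2ak3 and Sesn2 are low in pair 2, Trib3 and Ppp1r15a are highest in pair 3, and the rod and cone markers have their highest median, 0.89, in pair 3.

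The rest of the pathway was read in 5 lists of other genes, each on its brightest probe set. Of the eIF2 kinases, eIF2 subunits, subunits of its exchange factor eIF2B and the phosphatase subunit Ppp1r15b, 11 of 12 were tested, and 0 passed an unadjusted p under 0.05 from limma in either direction, with 3 above 0 and a median log2 difference of -0.05. Eif2ak4, the kinase GCN2 that senses a lack of amino acids, had the highest value at 0.24 (95% interval -0.24 to 0.71). Eif2b1, a regulatory subunit of eIF2B, had the lowest at -0.52 (95% interval -1.34 to 0.30), which came from -1.48 in pair 2. Ppp1r15b, a constitutive relative of Ppp1r15a that also directs the phosphatase to eIF2, had 0.04.

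Among other bZIP factors and regulators tied to the response, 9 of 10 were tested, with a median log2 difference of 0.02. In limma 2 of them passed an unadjusted p under 0.05 as higher and 0 as lower. Cebpb, a partner of ATF4 on CARE sites that also responds to cytokines, was at 565, 560 and 709 in control eyes and at 706, 935 and 956 in crushed eyes. It was higher in each pair, with crush eye 1 just under control eye 3, and its log2 difference was 0.50 (95% interval 0.11 to 0.89, adjusted p = 0.642 from limma), while its other probe set had -0.21. Atf6b, a relative of the ER stress sensor ATF6, was at 79.8, 60.5 and 64.4 in control eyes and at 99.3, 100.1 and 78.7 in crushed eyes. These are dim values in which crush eye 3 lay under control eye 1, and the log2 difference was 0.44 (95% interval 0.04 to 0.85, adjusted p = 0.642 from limma). Without any 1 of the pairs neither Cebpb (0.38 to 0.59) nor Atf6b (0.30 to 0.52) passed an unadjusted p under 0.05. Nupr1, a stress-induced chromatin protein, had the lowest value of the list at -0.27 (95% interval -0.62 to 0.07) and was lower in each pair. Its other probe set had -0.33. In limma Nupr1 passed an unadjusted p under 0.05 as lower with a floor of 64 and with no intensity filter. Atf3, a factor that ATF4 induces and that marks injured neurons, was at 15.1, 6.98 and 1.00 in control eyes and at 20.4, 1.00 and 1.00 in crushed eyes. It had a single dim probe set, its mean was under the minimum and it was not tested.

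Of other genes known as ATF4 targets, 25 of 27 were tested. In this list 15 were above 0 and 10 below, the median log2 difference was 0.04, and 0 passed an unadjusted p under 0.05 from limma. Aldh18a1, an enzyme of proline synthesis, had the highest value at 0.39 (95% interval -0.15 to 0.93) with 0.92 in pair 2, since control eye 2 was low. Fgf21, a stress hormone, had the lowest at -0.45 (95% interval -0.92 to 0.02) on a dim probe set and was lower in each pair. In limma Fgf21 passed an unadjusted p under 0.05 as lower with no replicate block and after quantile normalization. The same held when array medians were made equal and, with no pairing block, when the array of crush eye 3 was left out. Psat1, of serine synthesis, was at 5546, 6063 and 5521 in control eyes and at 4887, 5353 and 4845 in crushed eyes. All crushed eyes were under all control eyes and each pair had -0.18 or -0.19, but the log2 difference of -0.18 (95% interval -0.52 to 0.15) did not pass the threshold in limma as run here. It passed an unadjusted p under 0.05 in limma with a floor of 64 and with no intensity filter, and in the methods' t-test, where it was the sole gene of the 5 lists to do so. Ddit4, an inhibitor of mTORC1 that this pathway also induces, was higher in each pair by 0.07, 0.03 and 0.26. Slc6a9, a glycine transporter, is in this list and in that of amacrine cell markers.

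Of the cytosolic tRNA synthetases, many of which ATF4 regulates, 19 of 20 were tested, of which 6 were above 0 and 13 below, with a median log2 difference of -0.10 and 0 past an unadjusted p under 0.05 from limma. The highest was a dim probe set of Farsa, a subunit of the phenylalanine enzyme, at 0.72 (95% interval -0.32 to 1.76). It had 1.22 in pair 1, -0.54 in pair 2 and 1.46 in pair 3, and without pair 2 it was 1.34 (unadjusted p = 0.00074 from limma). The lowest was Tars, the threonine enzyme, at -0.33 (95% interval -0.82 to 0.16). Of a list of chaperones and genes for degradation of ER proteins, many of which ATF6 and XBP1 control, 24 of 25 were tested. Of these 8 were above 0 and 16 below, with a median of -0.08 and 0 past an unadjusted p under 0.05 from limma. This list also holds Ern1, Mbtps1 and Mbtps2, which act upstream of XBP1 or ATF6. Hspa5, the ER chaperone BiP, had -0.11 (95% interval -0.46 to 0.24), Manf, a neurotrophic ER protein, the lowest value at -0.43 with -1.26 in pair 2, and Syvn1, a ubiquitin ligase of the ER, the highest at 0.21. In pair 2 the medians of the tRNA synthetases and the ER genes were -0.26 and -0.23, while in pair 1 they were 0.07 and -0.02 and in pair 3 -0.06 and 0.03.

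**Figure D4:**
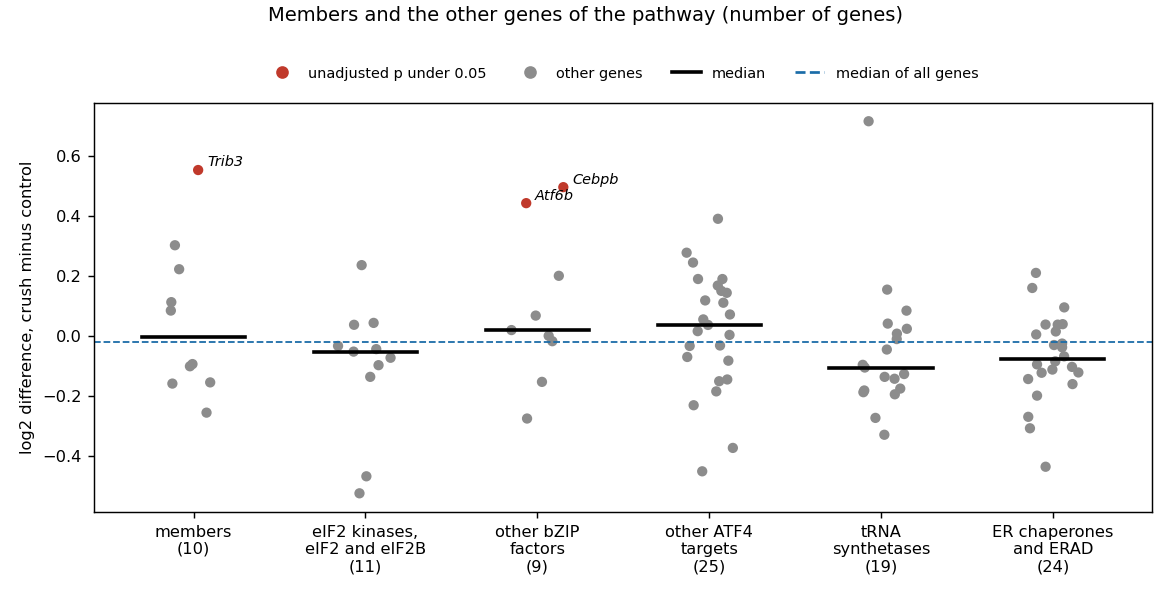
Log2 difference, crush minus control, of the 10 members and of the tested genes of 5 lists of the pathway, 1 point per gene on its brightest probe set, with medians as black bars and the median of all genes as a dashed line. Points in red have an unadjusted p under 0.05 from limma, which holds for Trib3, Cebpb and Atf6b, and all list medians lie between -0.10 and 0.04.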

How the data were processed

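The deposited table of 6 Affymetrix mouse arrays was used. The authors made these linear signal intensities in dChip with the PM/MM model and invariant-set normalization, per the study's methods. Here a floor of 16 was set before log2, and the 33169 probe sets whose mean reached 40 over the 6 arrays entered limma 3.58.1 (R 4.3.3). The eye number was a block, because a paired test is named in the methods; the labels do not state the pairing of each eye. Deviations of same-numbered eyes from the group means correlated at 0.154, 0.125 and 0.297, and others at -0.264 to 0.131 (crush 1 with control 2). Adjusted p values are Benjamini-Hochberg over all tested probe sets. Affymetrix control probe sets were left out, apart from the ratios of 3' to 5' signal. For Actb these were 8.53, 8.80 and 6.65 in control eyes 1, 2 and 3 and 10.5, 7.21 and 8.55 in crushed eyes. For Gapdh they were 5.93, 6.60 and 5.13 in control eyes and 4.68, 4.62 and 7.54 in crushed eyes. The part of RNA quality in the differences was not tested. A gene was read on its brightest probe set. Members and lists were chosen with earlier results of these data known. The text names all members and, of each list, genes past an unadjusted p under 0.05 and its extremes. Ppp1r15b, Eif2b2, Atf3, Psat1, Ddit4, Slc6a9 and Hspa5 were added after their values were seen. Alternatives changed the block, floor, filter, scaling, prior, test, arrays and the reading of a gene's probe sets; those without 1 crushed eye were added after the data were seen. The calculation was tested on simulated data. Precision is limited by the small number of arrays.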

Additional observations from a re-analysis of the deposited data

How the results depend on the processing

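The single member past an unadjusted p under 0.05, Trib3, was also past it with no replicate block (1 gene and 1 probe set), so the pairing did not change this call. The count of member genes and of member probe sets was 0 with a floor of 64, with no intensity filter, with the methods' t-test and without the array of crush eye 3 (no pairing block, chosen after seeing the data). The log2 difference of Trib3 was 0.55 in the first 2 of these settings (unadjusted p = 0.0646 and unadjusted p = 0.0818 from limma) and 0.47 without that array (unadjusted p = 0.0719). Leaving out each pair in turn gave 0 to 1 member genes and 0 to 1 member probe sets. Trib3 passed without pair 1 (0.74) but not without pair 2 (0.57, unadjusted p = 0.07 from limma) or pair 3 (0.35), and without pair 2 the probe set that passed was the dim one of Sesn2 (-0.79). Without the array of crush eye 2 (no pairing block, chosen after seeing the data) 2 member probe sets passed, those of Trib3 and Sesn2. With the mean of a gene's probe sets 1 member gene passed, Sesn2 and not Trib3. Over all probe sets, 1671 passed an unadjusted p under 0.05 with the methods' t-test and 1551 to 2696 without a pair, against 2546, and the study's criteria gave 321 with that t-test and 494 to 1340 without a pair, against 1036. The median of the members stayed between -0.085 and 0.0930 and within 1 SD of the pair medians under every alternative. Of the 17 tested member probe sets 9 turned sign in none of the limma settings in which they were tested, counting the dim probe set of Trib3, which was at 0 with a floor of 64. The dim probe sets of Trib3 and Sesn2 had no value with a minimum mean of 100. Ddit3, Eif2ak3, the brighter probe set of Sesn2 and 3 of Xbp1 changed sign without pair 2. Of the lists, only the ER genes had the same count of genes past the threshold, 0, in every setting, while those of the other lists ranged from 0 to 3. The cause of these changes was not tested. Probe sets near the floor, such as Atf3, give no usable difference.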
